A study of Mus musculus with 11 samples.

Results

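The septins examined here were the 9 family genes Sept2, Sept4, Sept5, Sept6, Sept7, Sept8, Sept9, Sept10 and Sept11, picked by gene symbol from tables that list 46469 symbols. They occupied 11 loci in each table, because Sept4 and Sept5 each have an additional copy on an alternate sequence, and the levels of both copies were summed. Their transcripts were measured in mouse embryonic fibroblasts by sequencing the poly(A) RNA of 11 libraries. The KO libraries came from Actb -/- cells (n = 3, numbered 1, 3 and 4), the Het libraries from Actb +/- cells (n = 4) and the WT libraries from Actb +/+ cells (n = 4). Actb encodes β-actin of the cytoplasm. All groups shared the BALB/c strain, an embryo age of 10.5 days, growth in high-glucose DMEM with serum, and harvest at 70% confluence. A KO library that failed quality control at the submitters was not analysed here. The submitters call the libraries biological replicates without naming an embryo or culture for each, so a p-value here reflects only how these samples scatter, and that scatter may be technical.

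Septins are GTP-binding proteins that join end to end into rods and then filaments, and these lie along actin bundles, microtubules and curved membranes. A rod takes its subunits from subfamilies: the SEPT2 group (here Sept2, Sept4 and Sept5), the SEPT6 group (Sept6, Sept8, Sept10 and Sept11), Sept7, the sole member of its own group, and Sept9 of the SEPT3 group, which occupies a separate place in the longer rods. Within a group, members can stand in for each other in a rod. In fibroblasts septins are known for their place on stress fibres and at the cleavage furrow of dividing cells.

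In these cells the number of intact Actb copies went with a different septin transcript make-up. Het cells held more Sept2 transcript than KO or WT cells, 1.99 times the WT level, KO cells held less Sept8, and Sept9 was higher in both mutants. Sept7 passed the test in no comparison. The genotypes also differed in the X-linked RNA Xist and in the genes around Sept2 and Sept8, and the part of Actb itself was not tested.

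The promoters are shown for Sept2, Sept8 and Sept9, the members with the clearest genotype patterns. Each is the 250 bases before a transcript start, the farthest upstream of the gene's promoter windows in RefSeq (GRCm38.p6). It is read 5′ to 3′ on the gene's own strand, which is plus for all 3. For Sept2 and Sept8 the RefSeq gene record begins farther upstream than that start. Capitals mark GGGCGG, the core of the GC box that SP factors bind, or its reverse complement CCGCCC.
Sept2, chr1:93478743-93478992: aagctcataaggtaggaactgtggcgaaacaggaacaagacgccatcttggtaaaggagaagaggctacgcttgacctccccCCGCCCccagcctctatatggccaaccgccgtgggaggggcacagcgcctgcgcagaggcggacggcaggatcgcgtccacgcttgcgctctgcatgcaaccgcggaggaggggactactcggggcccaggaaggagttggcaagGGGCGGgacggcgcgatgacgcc
Sept8, chr11:53519486-53519735: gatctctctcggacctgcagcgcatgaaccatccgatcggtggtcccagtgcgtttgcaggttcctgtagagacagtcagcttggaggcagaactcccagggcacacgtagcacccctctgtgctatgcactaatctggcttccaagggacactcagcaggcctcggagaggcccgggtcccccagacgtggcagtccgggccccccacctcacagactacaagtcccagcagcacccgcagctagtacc
Sept9, chr11:117199411-117199660: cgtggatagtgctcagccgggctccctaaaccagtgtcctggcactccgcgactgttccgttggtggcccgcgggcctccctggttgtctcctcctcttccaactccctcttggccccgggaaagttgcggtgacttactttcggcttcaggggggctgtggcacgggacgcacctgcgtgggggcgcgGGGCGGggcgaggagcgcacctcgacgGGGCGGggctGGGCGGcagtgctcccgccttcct
The Sept2 window shown held 2 matches, the Sept8 window none and the Sept9 window 3, and matches did not share bases. The windows of these genes not shown held 3 matches for Sept2, 2 for Sept8, and 2, 0 and 0 for Sept9. The Sept2 window not shown overlaps the one shown, and its 3 matches include the 2 counted there. At least 1 match was present in 32.7% of 32851 promoter windows of the same length. The CArG box, which serum response factor binds, was searched on 1 strand because it reads alike on both. It was found in none of the 16 windows of the 7 septin genes in the RefSeq table, and in 1.47% of all windows. CATTCC, the core that TEAD factors bind, was not found in any of the 3 windows above (12.6% of all windows on either strand), nor was GCGGGAA, an E2F core (3.82%). In the septin windows not shown, CATTCC had 1 match for Sept9 and 1 for Sept4, and GCGGGAA had 2 for Sept10. A match is a description of letters and not a bound site.

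Levels are FPKM (fragment numbers divided by transcript length and by library size), scaled so that libraries share a common median ratio. Differences are on the log2(FPKM + 1) scale from limma, adjusted by Benjamini and Hochberg over 14948 genes, and "rose" or "fell" means an adjusted p under 0.05. FPKM hold no read counts. Depth relative to WT 1, estimated from the Cufflinks interval widths of low genes, ranged from 59.8% in WT 3 to 126% in WT 4, with KO 1 at 64.9%. The Cufflinks 95% interval reached 3.95% to 4.53% to either side of the Sept11 level across libraries. For the chromosome 16 locus of Sept5, without its alternate copy, it reached 14.0% to 21.2%. This interval covers estimation within a library only. Actb itself checked the labels: it averaged 45.8 ± 1.27 FPKM over the 3 KO libraries, 837 ± 24.0 over the 4 Het libraries and 1325 ± 199.6 over the 4 WT libraries (SD). A marker is counted as reaching 1 FPKM if it did so in at least 1 library. All 7 fibroblast markers did, with summed levels of 2872 to 3555 in KO, 2059 to 2359 in Het and 1289 to 1728 in WT. Thy1 (mean 2.21 in KO, 0.667 in Het and 0.0248 in WT) and Pdgfra (0.96, 4.33 and 0.212) stayed under 1 FPKM in WT. Pdgfra and Col1a2 (11.5 in KO, 193 in Het and 6.86 in WT) averaged highest in Het, and the other fibroblast markers in KO. Neuronal and glial markers (3 of 8 reaching 1 FPKM) summed to 26.7 to 29.4 FPKM in KO, 24.8 to 31.6 in Het and 13.2 to 21.9 in WT. Of these 3, Tubb3 averaged 13.65 in KO, 24.6 in Het and 10.9 in WT. Map2 averaged 10.62 in KO, 0.596 in Het and 3.264 in WT, and Syn1 3.109, 1.531 and 1.774. Epithelial markers (1 of 5, Krt18) summed to 0.756 to 0.963 in KO, 5.36 to 9.05 in Het and 1.93 to 2.66 in WT. Macrophage and blood markers (2 of 6) summed to 3.79 to 6.65 FPKM in KO, 1.91 to 3.35 in Het and 2.03 to 3.30 in WT, and muscle markers (1 of 6) to 0.902 to 1.44 in KO, 0.953 to 1.54 in Het and 0.393 to 0.582 in WT. The part of these lists in the septin values was not tested. Endothelial and spermatid markers reached 1 FPKM in none of 5 genes each, and Tie1, Ptprc, Myod1, Myog, Prm2 and Tnp1 were listed at 0 throughout. In bulk RNA, fewer cells of a type and less RNA per cell cannot be told apart.

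The septin pool amounted to 691.8 ± 29.1 FPKM in KO, 811.6 ± 34.2 in Het and 662.7 ± 40.6 in WT (SD, n = 3 KO, 4 Het and 4 WT libraries). All Het libraries lay above all KO and WT libraries, and KO and WT overlapped. Of this pool the SEPT2 group took 27.7% ± 0.416 in KO, 39.2% ± 0.116 in Het and 25.3% ± 0.556 in WT. The SEPT6 group took 40.2% ± 1.36 in KO, 32.0% ± 0.294 in Het and 42.2% ± 0.141 in WT. Sept7 held 21.4% ± 0.651 in KO, 20.8% ± 0.695 in Het and 24.9% ± 1.61 in WT, and Sept9 held 10.7% ± 0.625 in KO, 8.04% ± 0.537 in Het and 7.59% ± 1.33 in WT (SD, n = 3 in KO and 4 in each of the others). Sept2 alone made up 24.5% ± 0.400 of the pool in KO, 36.8% ± 0.258 in Het and 22.7% ± 0.580 in WT. These shares are of transcripts per length, not of protein, and each depends on the whole pool. In FPKM the SEPT6 group averaged 278.7 in KO, 259.6 in Het and 279.8 in WT. Sept7 averaged 148.1 FPKM in KO, 168.7 in Het and 165.5 in WT.

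**Figure D1:**
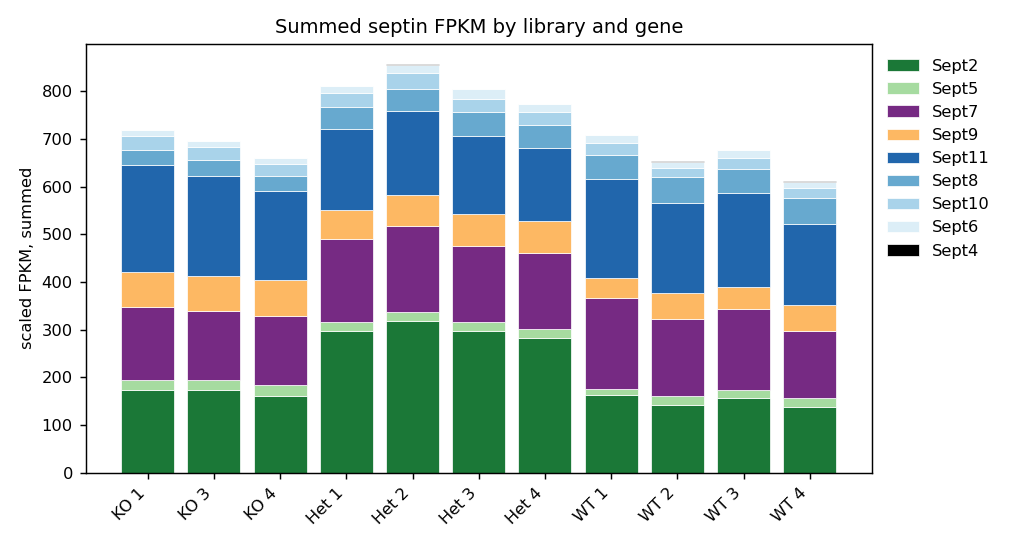
Summed scaled FPKM of the 9 septin genes in each library, stacked by gene, with KO libraries at the left, Het libraries next and WT libraries at the right. The Het columns reach 773.5 to 856.5 FPKM and carry the widest Sept2 layer, while Sept4 is too low to be seen.

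The order of levels differed by genotype. In KO cells Sept11 was highest, then Sept2, Sept7, Sept9, Sept8, Sept10, Sept5, Sept6 and Sept4, and each neighbour in that order was separated by the range of its libraries. In Het cells Sept2 led, above Sept7 and Sept11, whose ranges overlapped, then Sept9, Sept8 and Sept10, with Sept5 and Sept6 overlapping and Sept4 last. In WT cells Sept11, Sept7 and Sept2 followed each other with overlapping ranges, and so did the next pair, Sept8 and Sept9. The lowest were Sept10, then Sept5 and Sept6 with overlapping ranges, and Sept4.

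**Figure D2:**
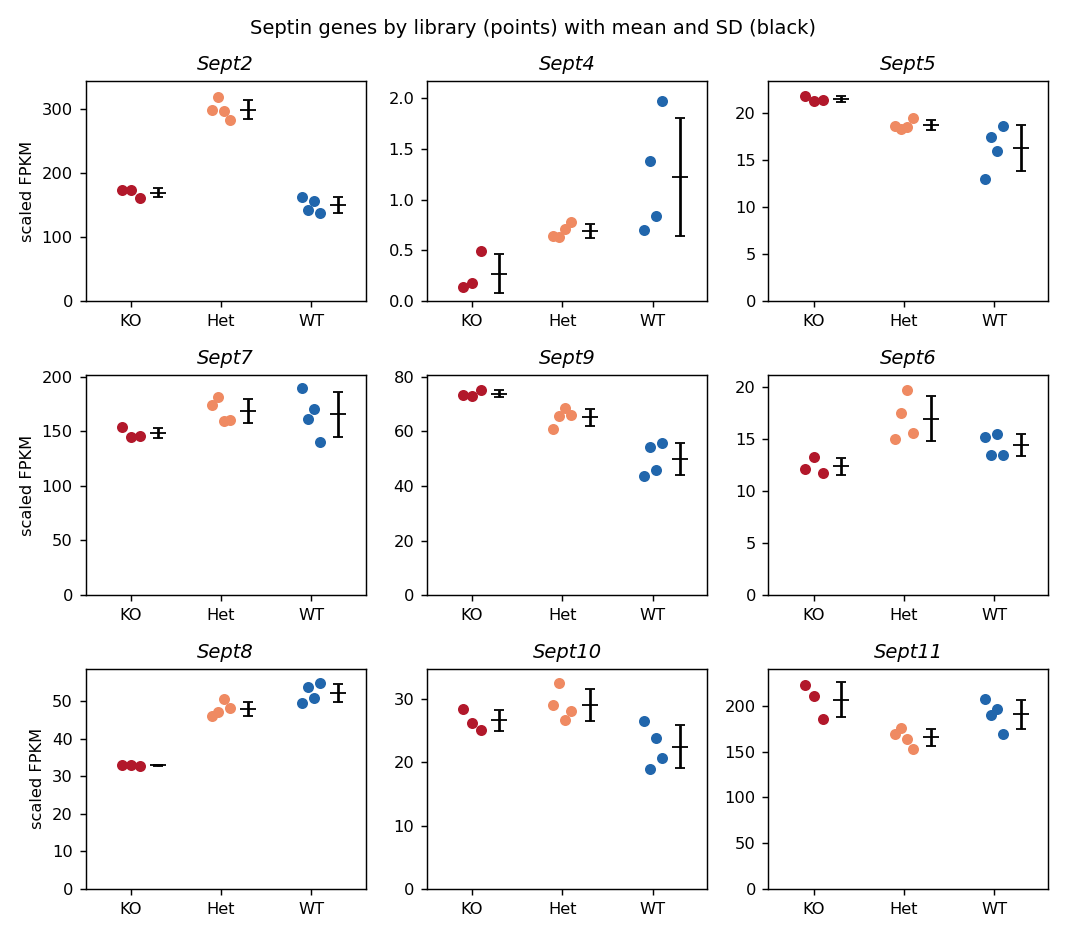
Scaled FPKM of each septin gene by library, with a panel per gene, with KO at the left, then Het and WT. Points are libraries, and black marks with bars are group means with SD. Sept2 stands apart in Het, Sept8 in KO, and Sept4 stays under 2 FPKM in every library.

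Of the SEPT2 group, Sept2 rose in Het and Sept5 rose in KO against WT, and Sept4 was too low to be tested. Sept2 (gene1281, chromosome 1, 93478967 to 93509733, GRCm38), a filament core subunit that is among the best studied at stress fibres and the cleavage furrow, measured 173, 174 and 162 FPKM in KO, 298, 318, 297 and 282 in Het, and 163, 143, 157 and 137 in WT. Every Het library lay above every other library, while the lowest KO value lay below the highest WT value. Sept2 rose in Het against WT by 0.99 (SE 0.07, 95% interval 0.85 to 1.14, adjusted p = 7.76e-07), a 1.99-fold level, higher in 4 of 4 libraries. It was lower in KO than in Het by a difference of -0.81 (adjusted p = 5.07e-06). KO against WT gave 0.18 (interval 0.02 to 0.33, adjusted p = 0.059), which passed without WT 1 (adjusted p = 0.0251, and 0.0251 to 0.31 over the alternatives). Het therefore did not lie between the other genotypes: it stood 0.90 above the midpoint of KO and WT (adjusted p = 6.25e-07).

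Sept5 (gene37941, chromosome 16, 18621811 to 18629938), which is best known from nerve terminals, where it binds syntaxin, measured 21.9, 21.4 and 21.4 FPKM in KO, 18.6, 18.3, 18.6 and 19.5 in Het, and 13.0, 17.5, 16.0 and 18.7 in WT. The KO libraries lay above all others, and Het and WT overlapped. Sept5 rose in KO against WT by 0.39 (SE 0.10, interval 0.17 to 0.61, adjusted p = 0.00716), while Het against WT gave 0.20 (adjusted p = 0.0985, and 0.0255 without WT 4) and KO against Het gave 0.19 (adjusted p = 0.143, and 0.0235 without WT 1). Each Sept5 level is the sum of similar, not identical, values listed for its locus on chromosome 16 and for its alternate copy, and how reads were split between them is uncertain. Its locus also overlaps 593 bp of Gp1bb on the same strand, a gene that averaged 0.419 FPKM in KO, 0.321 in Het and 0.180 in WT.

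Sept4 (gene28632, chromosome 11, 87566727 to 87590539), whose product includes the apoptosis-linked ARTS isoform and which is needed for the sperm annulus, was hardly present. It measured 0.141, 0.181 and 0.491 FPKM in KO, 0.641, 0.629, 0.715 and 0.779 in Het, and 0.696, 1.38, 0.840 and 1.97 in WT, and so did not enter the test. All KO libraries lay under all others. However, at the chromosome 11 locus alone the lower end of the Cufflinks interval was at 0 in 9 of the 11 libraries. Fitted without the filter on low values, KO against WT gave -0.78 (SE 0.18, adjusted p = 0.0105) and Het against WT gave -0.36 (adjusted p = 0.187).

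Sept7 (gene22737, chromosome 9, 25251090 to 25308571), the subunit that most rods contain and for which no other family member substitutes, was among the 3 most abundant septins in every genotype. It measured 154, 145 and 146 FPKM in KO, 174, 181, 160 and 160 in Het, and 190, 162, 170 and 140 in WT. The KO range lay inside the WT range but under every Het library. KO against WT gave -0.15 (interval -0.35 to 0.05, adjusted p = 0.2) and Het against WT gave 0.03 (interval -0.15 to 0.22, adjusted p = 0.787). KO against Het gave -0.18 (adjusted p = 0.128). These intervals leave room for changes of either sign in Het, and without WT 4 the KO difference from WT passed (adjusted p = 0.023, and 0.023 to 0.426 over the alternatives), as did that from Het (adjusted p = 0.0478).

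Sept9 (gene29505, chromosome 11, 117199661 to 117362325), the subunit that cross-links actin filaments and binds microtubules, measured 73.4, 72.8 and 75.3 FPKM in KO, 61.0, 65.6, 68.4 and 65.8 in Het, and 43.8, 54.2, 46.0 and 55.6 in WT. The 3 genotypes did not overlap, with KO highest, Het between and WT lowest. Sept9 rose by 0.56 in KO against WT (SE 0.08, interval 0.38 to 0.75, adjusted p = 0.000243), a 1.48-fold level, and by 0.39 in Het against WT (SE 0.08, adjusted p = 0.00216), a 1.31-fold level. Both comparisons use the same WT libraries. KO against Het gave 0.18 (adjusted p = 0.109), and Het lay 0.10 from the midpoint of KO and WT (adjusted p = 0.248).

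Of the SEPT6 group, Sept8 and Sept6 were both lower in KO than in Het, and Sept11 was higher. Sept8 (gene27578, chromosome 11, 53519736 to 53549600), a subunit also found on synaptic vesicles in brain, measured 33.0, 33.0 and 32.9 FPKM in KO, 46.1, 47.1, 50.5 and 48.4 in Het, and 49.6, 53.9, 50.8 and 54.8 in WT. The KO libraries lay far under the others and close together, and Het and WT overlapped. Sept8 fell in KO against WT by 0.65 on the log2 scale (SE 0.05, adjusted p = 3.14e-06), to 0.630 of the WT level, and was lower in KO than in Het by a difference of -0.53 (adjusted p = 1.61e-05). Het against WT gave -0.12 (adjusted p = 0.0754, and 0.0413 without WT 1), and Het lay 0.21 above the midpoint of KO and WT (adjusted p = 0.00321).

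Sept11 (gene12350, chromosome 5, 93091879 to 93179054), a filament subunit that partners Sept7 and is known in neurons and fibroblasts, measured 223, 211 and 186 FPKM in KO, 169, 176, 164 and 153 in Het, and 207, 190, 197 and 169 in WT. Het libraries lay under all KO libraries, and WT overlapped both. Sept11 was higher in KO than in Het by 0.32 (SE 0.08, adjusted p = 0.0106), a call that was lost without KO 1 (adjusted p = 0.0523). KO against WT gave 0.12 (adjusted p = 0.289) and Het against WT gave -0.20 (adjusted p = 0.0605), the Het difference passing without WT 4 (adjusted p = 0.0133) or without KO 4 (adjusted p = 0.0452), with adjusted p of 0.0117 to 0.153 over all alternatives. Het lay under the midpoint of KO and WT by a difference of -0.26 (adjusted p = 0.0116).

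Sept10 (gene25370, chromosome 10, 59141627 to 59221847), a further SEPT6 group subunit, measured 28.5, 26.3 and 25.2 FPKM in KO, 29.0, 32.5, 26.6 and 28.1 in Het, and 26.5, 18.9, 23.9 and 20.7 in WT. Het lay above WT without overlap, and KO overlapped both. Sept10 rose in Het against WT by 0.36 (SE 0.10, adjusted p = 0.0132), while KO against WT gave 0.24 (adjusted p = 0.0881, and 0.0206 without WT 1). KO against Het gave -0.12 (adjusted p = 0.407). The Het excess over the midpoint of KO and WT, 0.24, had an adjusted p of 0.049, and of up to 0.148 over the alternatives.

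Sept6 (gene44121, chromosome X, 36911272 to 36989695), the subunit for which the group is named, measured 12.1, 13.3 and 11.8 FPKM in KO, 15.0, 17.5, 19.8 and 15.6 in Het, and 15.2, 13.5, 15.5 and 13.5 in WT. KO lay under Het and under WT without overlap, and Het overlapped WT. Sept6 was lower in KO than in Het by a difference of -0.42 (SE 0.10, adjusted p = 0.00478), while KO against WT gave -0.20 (adjusted p = 0.109) and Het against WT gave 0.21 (adjusted p = 0.0771, and 0.0442 without Het 1). Het lay 0.32 above the midpoint of KO and WT (adjusted p = 0.00819). Xist, the RNA that coats the inactive X chromosome, averaged 0.0449 FPKM in KO, 48.9 in Het and 0.0503 in WT. The 561 tested genes of the X chromosome had a median Het difference from WT of 0.12, against 0.00 for 14275 autosomal genes. The Y-linked genes Ddx3y, Eif2s3y, Uty and Kdm5d stayed under 0.3 FPKM in all libraries. The part of the X-linked pattern in the Sept6 values was not tested.

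**Figure D3:**
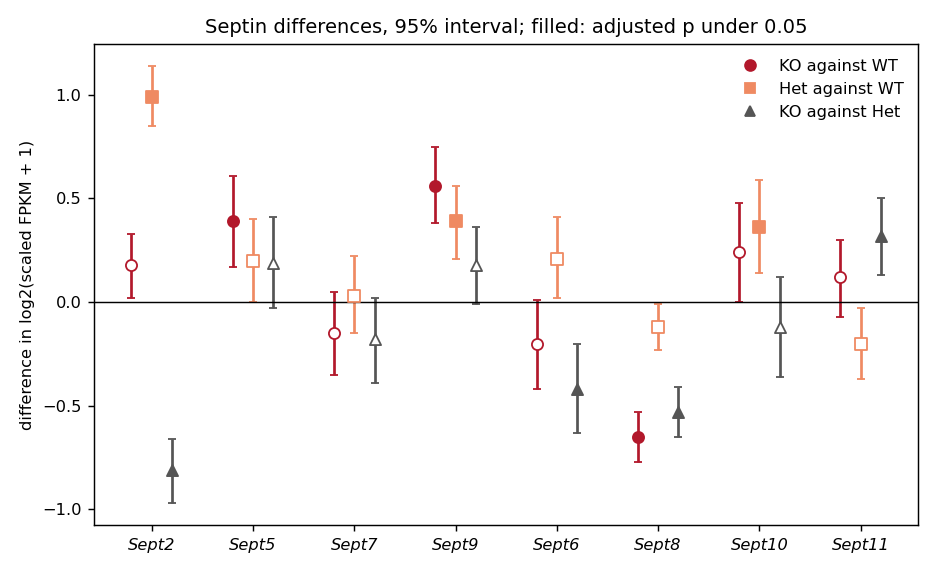
Log2(FPKM + 1) differences of the 8 tested septins for KO against WT, Het against WT and KO against Het, with 95% intervals from limma. Filled points passed an adjusted p of 0.05 and open points did not. Sept2 reaches 0.99 in Het against WT and Sept8 lies at -0.65 in KO against WT.

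These calls have to be read against a background in which a large share of genes was called. In KO against WT 47.1% of all genes tested passed, 23.3% higher and 23.8% lower, and of the 8 tested septins 2 rose (Sept5 and Sept9) and 1 fell (Sept8). In Het against WT 43.8% of genes passed, 21.7% higher and 22.1% lower, and 3 septins rose (Sept2, Sept9 and Sept10) and none fell, although 2 were lower at an unadjusted p under 0.05 in limma. In KO against Het 44.2% passed, 22% higher and 22.2% lower, and 1 septin was higher (Sept11) and 3 were lower (Sept2, Sept6 and Sept8). Against the midpoint of KO and WT 44% of genes passed for Het, 21.3% above it and 22.8% under it. There, 4 septins were above (Sept2, Sept6, Sept8 and Sept10) and Sept11 was under. These counts are near the background, so the number of septins called is not a result about the family. Groups did not overlap in KO and WT for 4 of the 8 tested septins (46.4% of all genes), in Het and WT for 3 of 8 (39.5%), and in KO and Het for 7 of 8 (54%). The median septin difference was 0.15 in KO against WT and 0.21 in Het against WT and -0.15 in KO against Het, beside 0.01 in each over all genes. Without regard to sign, the median septin difference was 0.22 in KO against WT, 0.21 in Het against WT and 0.25 in KO against Het, beside 0.29, 0.25 and 0.27 over all genes.

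The genes around Sept2 were examined after its values were known. The 20 nearest tested genes, all within 0.57 Mb, had a median Het difference from WT of 0.46, with 16 higher and none lower (none lower at an unadjusted p under 0.05 in limma either), and a median KO difference from WT of 0.01, with 5 higher and 4 lower. Library by library, their median against the WT mean was 0.43 to 0.47 in Het, 0.03 to 0.04 in KO and -0.03 to 0.01 in WT. Among them Farp2 averaged 3.76 FPKM in KO, 7.14 in Het and 4.46 in WT, and Hdlbp averaged 150.5 FPKM in KO, 212.3 in Het and 173.9 in WT. Over the 850 tested genes of chromosome 1, 44.7% were higher in Het than in WT and 10.2% lower, with a median of 0.21, against 21.7% higher over all genes. Sept2 itself stood at 0.99 in that comparison. The part of the region in the Sept2 values was not tested.

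**Figure D4:**
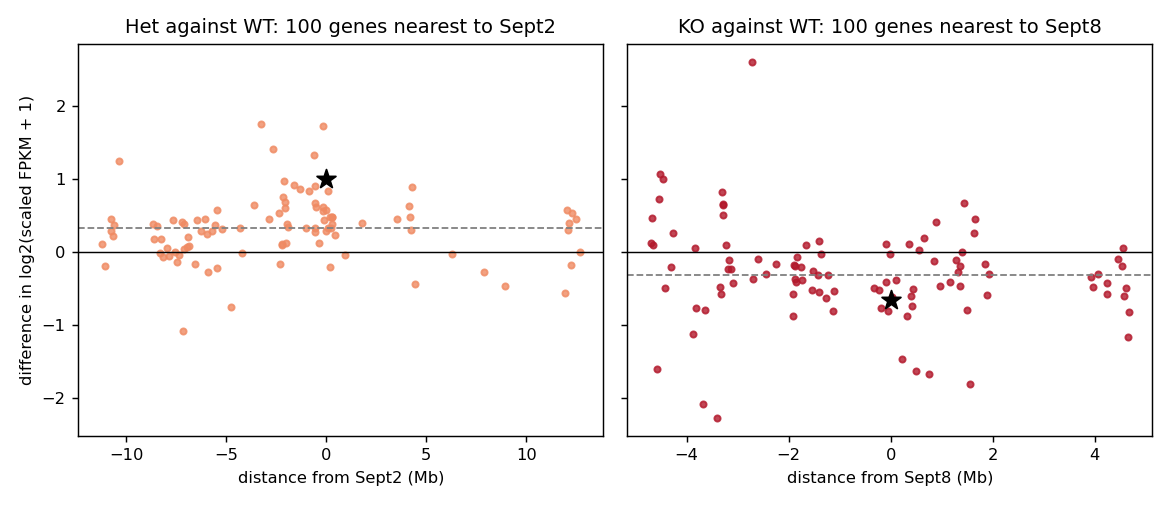
Log2(FPKM + 1) differences (y axis) of the 100 tested genes nearest to Sept2 in Het against WT (left) and to Sept8 in KO against WT (right), by distance from the septin in megabases (x axis). The star is the septin and the dashed line the median of the points, 0.33 around Sept2 and -0.31 around Sept8.

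Sept8 lay in a similar setting in the other mutant. Its 20 nearest tested genes, within 0.851 Mb, had a median KO difference from WT of -0.51, with 14 lower and none higher (none at an unadjusted p under 0.05 in limma), where 23.8% of all genes were lower and 23.3% higher, and a median Het difference from WT of -0.25, with 8 lower and 1 higher, where 22.1% of all genes were lower and 21.7% higher. Chromosome 11 as a whole had a median KO difference from WT of -0.03. Around Sept9, on the same chromosome, the 20 nearest genes had a median KO difference from WT of -0.04, with 3 higher and 6 lower, and a median Het difference from WT of 0.17, with 9 higher and 4 lower. Sept9 itself stood at 0.56 in KO and 0.39 in Het. The part of position in the Sept8 and Sept9 values was not tested.

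The genes whose log2 levels most resembled a called septin over the 11 libraries were sought among 8479 genes. Sept8 was closest to Actb itself (Pearson r = 0.989) and to Cyba (0.988). Sept9 was closest to Nfe2l1 (0.985) and Inppl1 (0.983), and Sept5 to Ccm2 and Tmem98 (both 0.975). These are descriptions over libraries that fall into 3 genotypes. Among septin pairs, Sept9 and Sept5 had r = 0.92, Sept10 and Sept2 had 0.76, Sept7 and Sept5 had -0.74, and Sept9 and Sept8 had -0.70.

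Of the other family genes only Sept1, a SEPT2 group member known mainly from lymphocytes, entered the test. It measured 3.50, 3.64 and 4.29 FPKM in KO, 1.31, 1.85, 1.78 and 0.844 in Het, and 0.629, 1.77, 1.69 and 1.23 in WT, and rose in KO against WT by 1.07 (SE 0.20, adjusted p = 0.00115). The KO libraries lay above all others. Sept3, Sept12 and Sept14 stayed below the filter. Fitted without it, Sept3, a SEPT3 group member known mainly from neurons, gave -0.37 in KO against WT (adjusted p = 0.0409) and -0.34 in Het against WT (adjusted p = 0.0475).

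Septins are recruited to actin by the Borg proteins (genes Cdc42ep1 to Cdc42ep5), which bind Cdc42, and also associate with myosin II and adaptor proteins. Of 20 tested partner and regulator genes, 8 rose and 4 fell in KO against WT (median 0.31), 4 rose and 3 fell in Het against WT (median -0.01), and 8 were higher and 5 lower in KO against Het (median 0.32). Over all genes 47.1% were called in KO against WT (23.3% higher, 23.8% lower) and 43.8% in Het against WT (21.7% higher, 22.1% lower). In KO against Het 44.2% of all genes were called, 22% higher and 22.2% lower. The larger number of higher than of lower calls in the KO comparisons was not tested. Sorbs2, an adaptor at stress fibres and adhesions, averaged 12.6 FPKM in KO, 7.68 in Het and 2.16 in WT, and rose in both mutants, by 2.09 in KO (adjusted p = 6.46e-08) and 1.46 in Het (adjusted p = 8.18e-07). Both comparisons use the same WT libraries. Of the Borg genes, Cdc42ep3 rose in KO against WT by 1.37 (adjusted p = 7.24e-08). Cdc42ep2 rose in both mutants, by 0.51 in KO (adjusted p = 0.00198) and 1.14 in Het (adjusted p = 4.64e-06). Cdc42ep4 and Cdc42ep5 rose in Het against WT, by 0.80 (adjusted p = 0.00109) and 0.55 (adjusted p = 0.0377), and neither passed in KO against WT. KO against Het gave -0.46 for Cdc42ep4 (adjusted p = 0.033) and -0.32 for Cdc42ep5 (adjusted p = 0.242). Cdc42ep1 passed against WT in neither mutant. Myh9, the nonmuscle myosin heavy chain, averaged 309 FPKM in KO, 117.4 in Het and 141.6 in WT (KO difference from WT 1.18, adjusted p = 0.00148).

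**Figure D5:**
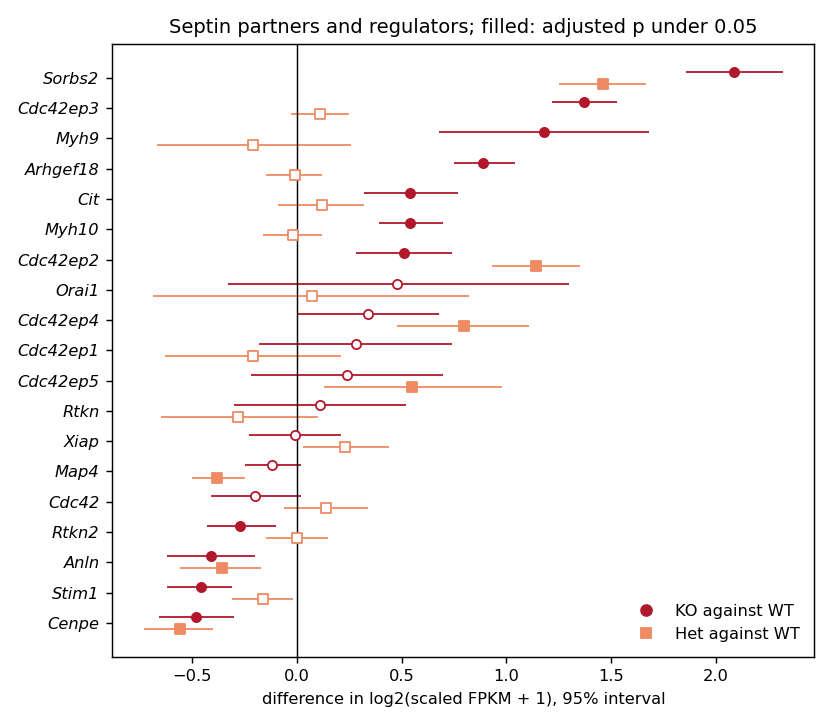
Log2(FPKM + 1) differences (x axis, with 95% intervals) of the tested septin partners and regulators reported here (y axis), with KO against WT drawn above Het against WT for each gene. Filled points passed an adjusted p of 0.05. Sorbs2 reaches 2.09 in KO and 1.46 in Het.

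Septins also assemble at the furrow and midbody. Of 15 tested cytokinesis genes (47.1% of all genes were called in KO against WT, 23.8% lower, and 43.8% in Het against WT, 22.1% lower), 8 fell and none rose in KO against WT (median -0.18; 0 higher and 9 lower at an unadjusted p under 0.05 in limma), 7 fell and none rose in Het against WT (median -0.22; 0 higher and 8 lower unadjusted), and 2 were higher and 3 lower in KO against Het. Without regard to direction, the numbers called against WT are near those shares. All of these calls were lower, where 23.3% of all genes were higher in KO against WT and 21.7% in Het against WT. The shared direction of these calls was not tested. Kif23, the kinesin of the central spindle, averaged 39.1 FPKM in KO, 41.1 in Het and 68.4 in WT, a difference from WT of -0.78 in KO (adjusted p = 2.19e-05) and -0.72 in Het (adjusted p = 3.15e-05). Aurkb, the midzone kinase, fell by 0.68 in KO against WT (adjusted p = 4.04e-05), Ect2, the furrow RhoA activator, by 0.61 (adjusted p = 0.000257), and Chmp4b, a subunit that cuts the midbody, by 0.60 (adjusted p = 5.4e-05).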

How the data were processed

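The FPKM values and their 95% intervals were deposited by the authors as estimates of Cufflinks 2.2.1, after placing reads with TopHat2 2.1.0 on GRCm38.p4, per the submitters' processing notes, and stranded mRNA libraries were prepared per the labels' protocols. Coordinates are on GRCm38, counted from 1. Rows were joined by gene ID and position, because the WT 1 table holds septin symbols turned into dates, and FPKM were summed per symbol. One such date stood for Sep15, a selenoprotein gene, which was left out.

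Libraries were brought to a common scale with median-of-ratio factors of 0.937 to 1.04, taken from 13981 genes. The filter asked for 1 or more scaled FPKM in 3 or more libraries, which 14948 genes met. log2(FPKM + 1), computed from the deposited FPKM, entered a limma fit (version 3.58.1, R 4.3.3) that had a mean per genotype and a mean-variance trend over all 11 libraries. A fold change on this scale understates changes of low genes. P-values were adjusted by Benjamini and Hochberg with a threshold of 0.05. The fit was tested on simulated data.

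The members and gene lists were chosen with earlier results of these data known. Genes are named by a rule: all members and Actb, up to 4 genes per list with the largest called change in KO against WT, and the 2 genes most like each member called there. A gene that the rule takes is not reported here. Farp2, Hdlbp, Cdc42ep1, Cdc42ep2, Cdc42ep4, Cdc42ep5, Thy1, Pdgfra, Col1a2, Tubb3, Map2 and Syn1 were named after their values were seen. Alternatives were other pseudocounts, filters, scalings, loci, samples in the fit, a fit without the trend, a replicate block and each library left out.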

Additional observations from a re-analysis of the deposited data

How the results depend on the processing

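Over 20 alternatives, the calls of Sept2 in Het against WT and KO against Het, Sept8 in KO against WT and KO against Het, Sept9 in KO against WT and Het against WT, Sept5 in KO against WT, Sept10 in Het against WT and Sept6 in KO against Het kept their direction and their side of the threshold. Of 632 values of single genes, 596 did so, 20 gained and 11 lost the threshold, and 5 reversed. The cause of each change below was not tested, beyond the smaller number of samples or the changed scaling that defines the setting.

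Without scaling between libraries, 5 septins passed in KO against WT, the summed septin FPKM of KO was 656.1, the median of all genes moved by -0.09 in KO against WT and -0.10 in KO against Het, and higher genes made up 37.1% of the calls in KO against WT (49.4% with scaling) and 36.5% in KO against Het (49.8% with scaling). With the fit limited to the compared groups, 7 septins passed in KO against Het. With each library left out in turn, 3 to 5 septins passed in KO against WT, 3 to 5 in Het against WT, 3 to 5 in KO against Het and 4 to 5 against the midpoint. The summed FPKM then ran from 678.4 to 707.3 in KO, 796.6 to 824.3 in Het and 647.5 to 679.5 in WT. Without the mean-variance trend or without the filter, 4 septins passed against the midpoint.

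Whether replicate numbers pair the samples was not settled, and the main fit leaves the numbers out. Of 10 same-number pairs, 5 had a correlation of deviations over 0.1 (range -0.101 to 0.352). Among these were all pairs of number 4, at 0.254 to 0.352. Of 11 libraries, 6 correlated best with their own number. With a replicate block, 4 septins passed in KO against WT, 5 in Het against WT, 4 in KO against Het and 4 against the midpoint, and Sept5 turned to -0.0008144 against the midpoint. The block brought Sept2 in KO against WT (adjusted p = 0.0464), Sept6 in Het against WT (0.0405) and Sept11 in Het against WT (0.0117) past the threshold, the last also without scaling (0.0396). Sept5 against the midpoint ran from -0.0417 to 0.0363 with a library left out (negative without WT 1 and without Het 4), and Sept7 in Het against WT from -0.0470 to 0.1015 (negative without WT 4 and without Het 2). None of these values was called.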

Other observations

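Differences from WT were unevenly spread over the chromosomes, a view added after the data were seen. Chromosomes without a septin examined here showed this too. In KO against WT 59.9% of tested genes were lower on chromosome 14, and 46% were higher on chromosome 12. In Het against WT 47.4% were lower on chromosome 13. In Het against WT the share of tested genes called higher was 44.7% on chromosome 1 (Sept2) and 9.22% on chromosome 9 (Sept7), beside 21.7% over all genes. In KO against WT chromosome 5 (Sept11) had 34.3% of its genes higher and 11.1% lower. The 100 genes nearest to Sept11 had a median KO difference from Het of 0.34, beside the 0.32 of Sept11 itself. Of these, 56 were higher and 9 lower, where 22% of all genes were higher and 22.2% lower. The 100 genes nearest to Sept7 had a median KO difference from WT of -0.16. Of these, 6 were higher and 34 lower, where 23.3% of all genes were higher and 23.8% lower.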
